A study of Mus musculus with 6 samples.

Results

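The Wnt pathway was followed at the level of mRNA in neural stem/progenitor cells (NSC/NPCs) of the fetal mouse hypothalamus. The genes were set by a list of names, drawn up with earlier results of these data known, which comprised every Wnt and Frizzled (Fzd) gene, the co-receptors Lrp5 and Lrp6, secreted antagonists (Dkk, Sfrp, Wif1, Notum), the R-spondin and Lgr genes with the ligases Znrf3 and Rnf43, Ctnnb1 with its scaffold genes Axin1 and Apc, the TCF/LEF factors, and the feedback inhibitors Axin2, Nkd1 and Nkd2. All 57 such genes were found among the 22048 genes of the deposited table, and 47 of them, among 13952 genes in all, had enough reads to be tested. The remaining 10 are given below by their reads.

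Male C57BL/6 fetuses came from dams, 8 weeks of age, that received estradiol valerate at 100 μg/kg/d (HE) or corn oil (NC) by gavage between E5.5 and E11.5. The labels also list the NC samples as "untreated". Hypothalami were taken at E14.5, dissociated and grown as floating neurospheres with EGF and bFGF, and RNA was taken at the first passage from 3 HE and 3 NC samples, each holding cells of 2 mice. Nothing in the sources says which samples came from the same litter, so the p-values measure the spread between these samples only. As the cells were expanded in culture after exposure had ended, the mRNA levels are those of cultured cells and not of the hypothalamus itself.

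Wnt ligands are secreted lipid-modified proteins that bind Frizzled receptors. Together with Lrp5 or Lrp6 they stop a scaffold of Axin and Apc from marking β-catenin (Ctnnb1) for destruction, so that β-catenin enters the nucleus and activates genes with TCF/LEF proteins. Axin2, Nkd1, Notum, Znrf3, Rnf43 and Lgr5 are among the genes switched on in many tissues and are therefore widely used as readouts. In the embryonic brain the pathway is known for patterning, for keeping progenitors in cycle and, through Wnt7a and Wnt7b, for guiding the growth of brain vessels. Some ligands, Wnt5a and Wnt5b among them, mostly signal without β-catenin.

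Promoter sequence is shown for those ligands named further on for levels that stood apart between HE and NC and that have an entry in the RefSeq promoter table (GRCm38.p6). Each line gives the 250 bases before an annotated transcription start, 5′ to 3′ on the strand of the gene, and capitals mark a TCF/LEF match. The windows are chr6:119449387-119449636 (minus strand) for Wnt5b, chr6:18030446-18030695 (minus strand) for Wnt2 and chr4:137277385-137277634 (plus strand) for Wnt4.

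Wnt5b: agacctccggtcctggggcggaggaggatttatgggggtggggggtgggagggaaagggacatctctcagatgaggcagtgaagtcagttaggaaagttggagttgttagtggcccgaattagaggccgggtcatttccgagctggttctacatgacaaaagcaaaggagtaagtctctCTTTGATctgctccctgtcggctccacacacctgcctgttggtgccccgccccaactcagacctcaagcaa
Wnt2: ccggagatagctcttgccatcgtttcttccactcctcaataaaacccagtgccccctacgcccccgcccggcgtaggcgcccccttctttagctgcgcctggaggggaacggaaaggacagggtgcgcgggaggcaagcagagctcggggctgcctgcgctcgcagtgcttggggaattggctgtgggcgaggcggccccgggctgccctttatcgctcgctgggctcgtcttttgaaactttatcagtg
Wnt4: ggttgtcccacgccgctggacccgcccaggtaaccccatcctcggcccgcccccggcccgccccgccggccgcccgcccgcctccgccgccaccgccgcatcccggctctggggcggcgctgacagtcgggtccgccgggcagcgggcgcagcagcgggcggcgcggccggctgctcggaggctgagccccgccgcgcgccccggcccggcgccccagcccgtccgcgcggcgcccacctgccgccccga

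The motif searched was the TCF/LEF core CTTTG followed by AA, AT, TA or TT, on both strands. In Wnt5b the match CTTTGAT began 71 bases before the start, and the other windows of Wnt5b held none. The Wnt5b window shown is thus the only one of that gene with a match. The others had 35 CpG dinucleotides (chr6:119544348-119544597) and 4 (chr6:119467212-119467461). The Wnt4 window was the richest in CpG of the 3, with 44 CpG dinucleotides and 85.2% G or C, against 20 CpG in Wnt2 and 7 in the Wnt5b window shown. Over the pathway, 38 genes had 48 windows, of which 6 held a match (12.5%), in Wnt5b, Wnt11, Fzd7, Lef1, Tcf7l2 and Dkk1, against 14.8% of all 32851 windows. The estrogen response element GGTCANNNTGACC was in none of the 48 windows and in 0.0639% of all windows. The pathway windows held a median of 20.5 CpG against 6 over all windows. A match is a stretch of letters and not a measured site, and Wnt7b, Dkk3 and Lrp5 are named here without sequence.

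The libraries held from 16078675 to 19137059 reads on genes. Levels are in RPKM, that is reads scaled to the length of the gene and to the size of the library, and 1 read on a gene of 1 kilobase was worth 0.0523 to 0.0622 RPKM. Of 12 neural progenitor markers, all were tested and detected in every sample, with a summed level of 3120 to 3760 RPKM in NC and 3010 to 4750 RPKM in HE. Their levels were uneven, with Sox2 at 97.3 to 209 RPKM and Nes at 154 to 247 RPKM, but Hes5 at 2.14 to 6.18 RPKM, Pax6 at 2.3 to 4.55 RPKM and Prom1 at 1.81 to 5.70 RPKM. Sox2, Sox1, Msi1 and Prom1 lay lower in every HE sample and Mki67, a gene of cycling cells, higher, and their part in the results below was not tested. Markers of other cells were also read, by their RPKM summed over each list, as the lowest to highest sample. The astrocyte list of 6 genes was at 1280 to 1560 in NC and 813 to 1280 in HE, the oligodendrocyte lineage list of 7 at 289 to 319 and 313 to 514, the neuron list of 8 at 46.4 to 77.4 and 52.2 to 67.6, and the choroid and ependyma list of 6 at 106 to 236 and 34.4 to 457. The mesenchymal list of 8 genes was at 26.1 to 75.9 in NC and 67.1 to 147 in HE, the endothelial list of 8 at 2.47 to 3.43 and 4.17 to 5.26, and the microglia list of 8 at 0.682 to 1.15 and 2.01 to 9.29. The sample HE3 stood apart from the others, as it held the lowest value of all samples in 44.4% of the genes tested and the highest in 24.5%. Of the 47 Wnt pathway genes it was lowest in 18 and highest in 6. These shares and counts are on RPKM scaled by library total. Scaling by the median of ratios multiplied the RPKM of HE3 by 1.11 and those of the other samples by 0.968 to 0.998. The lowest and highest values were not counted on that scale.

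Wnt7b was the main Wnt mRNA of these cells and lay lower in HE. The groups overlapped in each of the 9 tested readouts of β-catenin. With 3 samples a group, this overlap does not show that the readouts were unchanged. Their fitted values went both ways, 6 above 0 and 3 below. Among them Axin2 was at -0.46 on the log2 scale, with a 95% interval from -1.01 to 0.10. Beside Wnt7b, the ligand Wnt5b, the co-receptor Lrp5 and the abundant Dkk family gene Dkk3 lay lower in every HE sample. The scarcer ligands Wnt2 and Wnt4 lay higher. Fzd4, Ctnnb1 and Apc also lay higher in every HE sample, by smaller shifts, and Tcf7l1 lower. None of these differences passed the adjusted test. Groups were apart in 21.3% of the tested pathway genes, a lower share than the 32.7% of all genes tested. Levels ran over several orders of magnitude, from Ctnnb1 at a mean of 229 RPKM and Wnt7b at 116 RPKM down to Lef1 at 0.0882 RPKM. Of the 47 tested genes, 12 had a mean of at least 10 RPKM and 12 a mean under 1 RPKM.

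**Figure D1:**
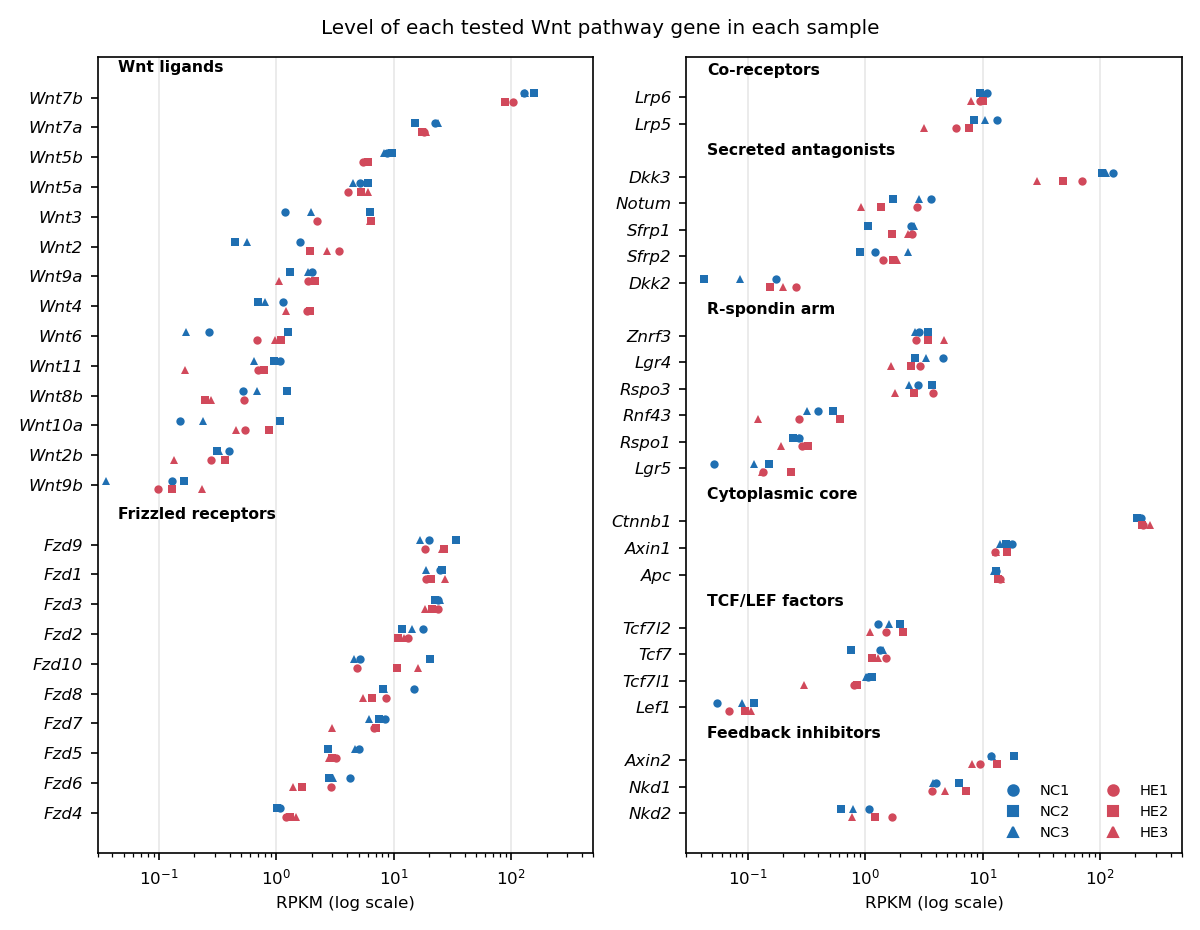
RPKM of the 47 tested Wnt pathway genes in each sample, on a log scale, by role. Blue is NC and red is HE, and circles, squares and triangles are samples 1, 2 and 3 of a group; Wnt7b, Dkk3 and Ctnnb1 lie far to the right of the other genes of their roles.

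Differences between HE and NC were tested with limma on log2(RPKM + 0.1) over all 13952 genes, with Benjamini-Hochberg adjustment, and a call needed an adjusted p-value under 0.05 with a change of 1 or more on the log2 scale either way. On this scale the change of scarce mRNAs is understated. Of the 47 Wnt pathway genes 0 were called, where 0% of all genes tested were. Running limma's voom on the read counts also called 0. The paper, which ran DESeq2 at the same cutoffs, did report differentially expressed mRNAs. The 0% of all genes thus holds for the test used here. With an unadjusted p-value under 0.05, the pathway held 2 higher genes (4.26%, against 8.68% of all genes) and 6 lower genes (12.8%, against 11.8% of all genes), and voom also gave 8 genes. The 3 HE values all lay above the 3 NC values in 5 genes (10.6%, against 14.8% of all genes) and all below in 5 (10.6%, against 17.9% of all genes). The median log2 fold change was -0.07 over the 47 genes and -0.06 over all genes. Neither the shares nor the median thus set these 47 genes apart from the other genes. Further genes of the pathway, outside this list, are given at the end. The adjusted p-values of the 8 genes ran from 0.195 to 0.223.

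**Figure D2:**
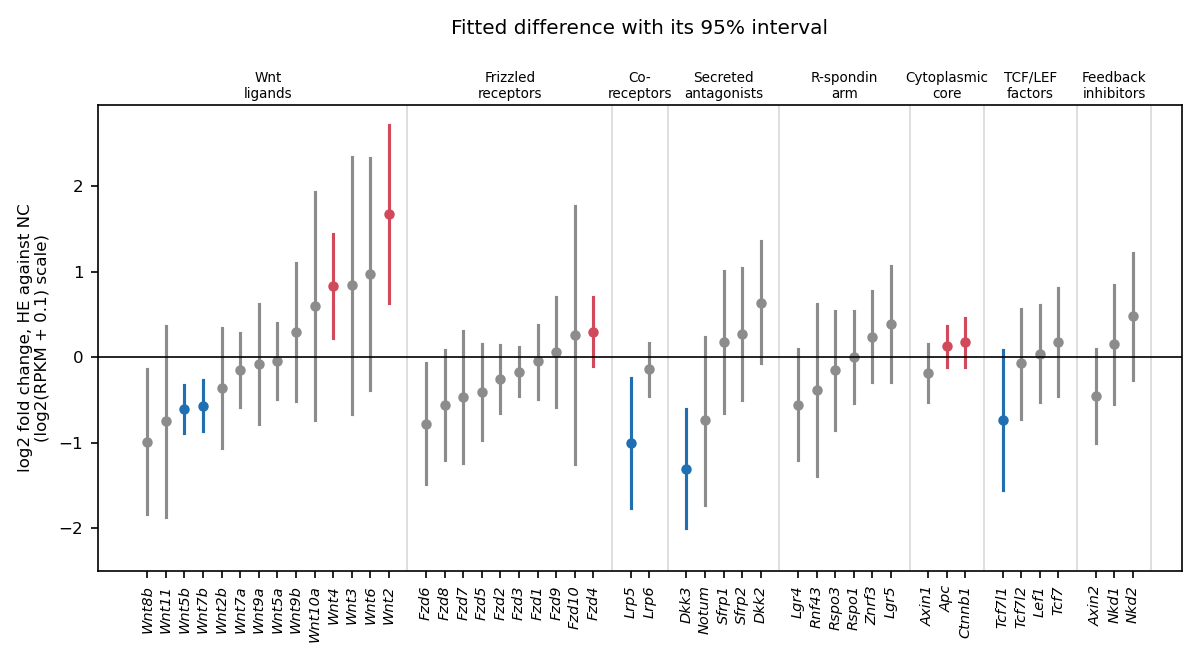
Log2 fold change of HE against NC for each tested gene with its 95% interval from limma, by role. Red marks genes with every HE value above every NC value, blue marks the reverse and grey marks overlapping groups; the intervals of Wnt2 and Wnt4 lie above 0, those of Wnt7b, Wnt5b, Wnt8b, Fzd6, Dkk3 and Lrp5 below it.

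Of the 19 ligand genes 14 were tested, and Wnt7b made up 66.2% to 77.8% of the summed ligand RPKM of a sample. Wnt7b (ENSMUSG00000022382, chromosome 15, 85535437 to 85581821 in GRCm38.p6) was at 129, 156 and 132 RPKM in NC1 to NC3 and at 103, 88.1 and 88.9 RPKM in HE1 to HE3. The groups did not overlap, and even HE1 was well below NC1. The means were 139 ± 15.0 and 93.5 ± 8.61 RPKM (SD, n = 3 each), and the log2 fold change was -0.57 (standard error 0.13, adjusted p = 0.195 in limma). At 6306 to 13183 reads per sample, counting error is small beside this spread. The sum of all ligands was 174, 201 and 176 RPKM in NC and 144, 133 and 133 RPKM in HE. Without Wnt7b it was 45.2, 44.6 and 44.0 RPKM in NC and 40.1, 44.9 and 44.0 RPKM in HE, so that the groups overlapped once Wnt7b was set aside.

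**Figure D3:**
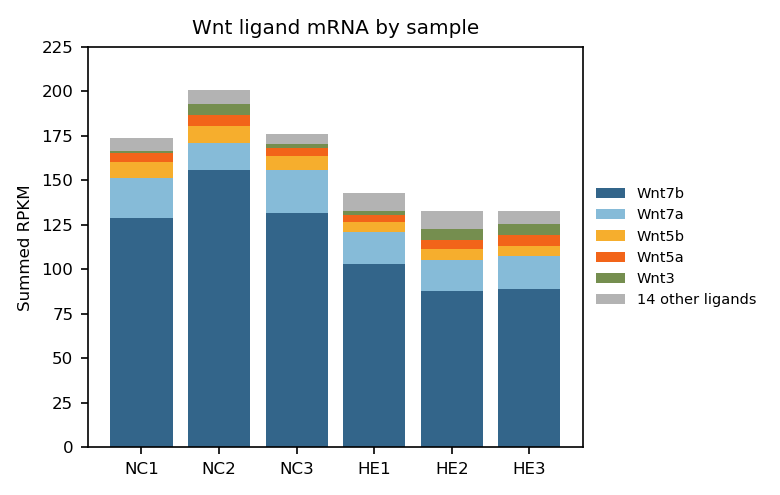
Summed RPKM of the 19 Wnt ligands in each sample, with the 5 most abundant ligands in color and the other 14 in grey. The Wnt7b part is 129 to 156 RPKM in NC and 88.1 to 103 RPKM in HE, and the rest of each bar is 40.1 to 45.2 RPKM high.

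Wnt7a, which shares the vascular role of Wnt7b, ranked next among the ligands and was at 22.6, 15.0 and 23.7 RPKM in NC and 18.2, 17.3 and 18.7 RPKM in HE. Here NC2 was the lowest sample, and the groups overlapped. Its log2 fold change was -0.15 with a 95% interval from -0.58 to 0.28, which just includes the value of Wnt7b, and it ran from -0.36 without NC2 to -0.03 without NC3. The difference between both ligands was not tested.

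The other pair of related ligands was Wnt5b and Wnt5a. Wnt5b was at 8.69, 9.57 and 8.25 RPKM in NC and 5.47, 5.97 and 5.81 RPKM in HE, with a gap between the groups and little spread within them. On the log2 scale the fold change was -0.61 (standard error 0.12, adjusted p = 0.195 in limma), and with each sample left out in turn it stayed between -0.66 and -0.55. The annotated span of Wnt5b on chromosome 6 overlaps that of Fbxl14 by 4219 bases, and reads could be shared. Fbxl14 was fitted at 0.02 on the log2 scale (standard error 0.17). Wnt5a had a log2 fold change of -0.05, with a 95% interval from -0.49 to 0.40. The interval of Wnt5b ran from -0.89 to -0.33 and overlapped that of Wnt5a. The difference between the genes was not tested.

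Wnt2 and Wnt4 were the ligands with every HE sample above every NC sample, at levels far under those of Wnt7b. Wnt2, known for its part in the specification of the lung, was at 1.58, 0.440 and 0.562 RPKM in NC and 3.42, 1.93 and 2.68 RPKM in HE. NC1 lay nearest to the HE samples, close to the 1.93 RPKM of HE2. The fitted log2 fold change was 1.68 (standard error 0.44, adjusted p = 0.195 in limma), from 19 to 138 reads per sample. With log2(RPKM + 1) it was 1.01.

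Wnt4, which acts in kidney tubules and in the developing ovary, was at 1.14, 0.698 and 0.805 RPKM in NC and 1.81, 1.93 and 1.20 RPKM in HE. The gap between HE3 and NC1 was narrow. On the log2 scale the fold change was 0.83 (standard error 0.26, adjusted p = 0.195 in limma), and 0.49 with log2(RPKM + 1). The mesenchymal list, at 26.1 to 75.9 summed RPKM in NC and 67.1 to 147 in HE, overlapped between the groups but was fitted higher in HE for all 7 markers tested, with a median log2 fold change of 0.92 and a lowest of 0.00. Col3a1, a collagen of connective tissue, was at 43.3, 12.2 and 25.0 RPKM in NC and 92.7, 71.6 and 45.7 RPKM in HE, and Twist1, a mesenchymal transcription factor, at 0.873 to 0.980 RPKM in NC and 2.19 to 3.93 RPKM in HE. Of these 7 markers, Col3a1, Dcn and Twist1 lay above NC in every HE sample, while Col1a1, Col1a2, Pdgfrb and Foxc1 overlapped. The summed endothelial and microglia lists, given above, also lay higher in each HE sample, but by few of their genes. In the microglia list C1qa, C1qb, C1qc and Tyrobp lay higher in every HE sample, each at 0 in at least 1 NC sample, and P2ry12, Csf1r, Cx3cr1 and Aif1 overlapped. The part of these cells in the levels of Wnt2 and Wnt4 was not tested. In bulk RNA more cells of a type and more mRNA per cell cannot be told apart.

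**Figure D4:**
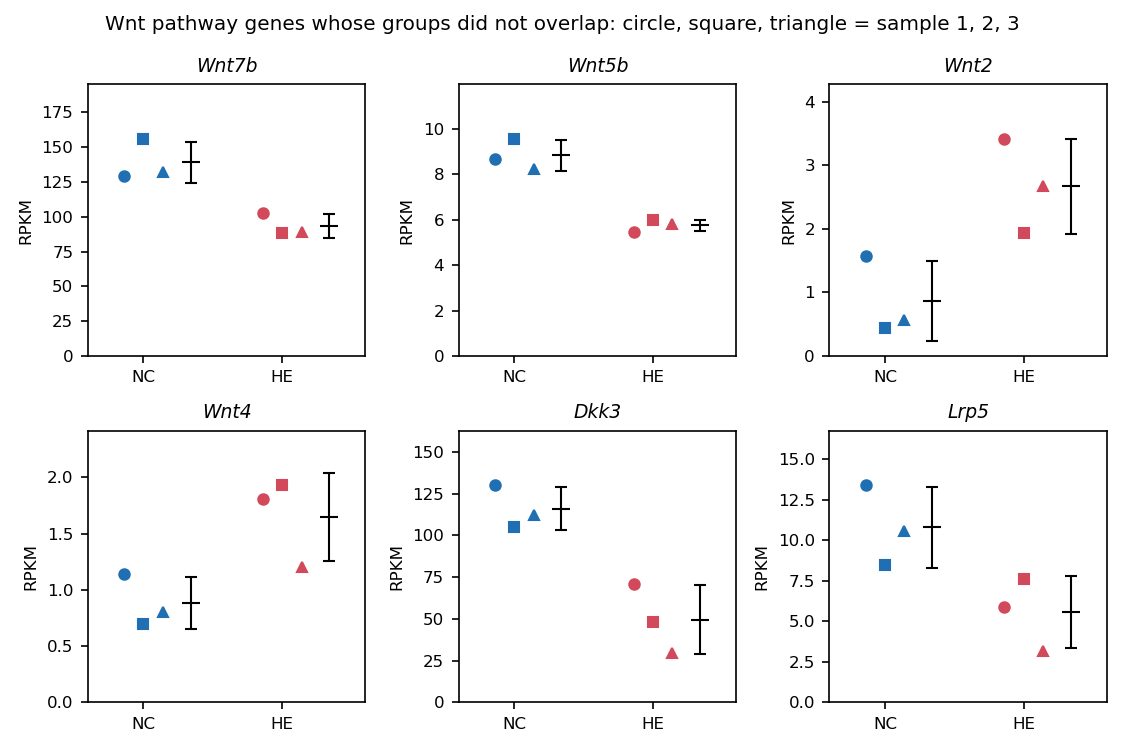
RPKM of the 6 genes with an unadjusted p-value under 0.05 and groups that did not overlap, on linear axes from 0. Circles, squares and triangles are samples 1, 2 and 3, and the bars beside them are the mean and SD of 3 samples; Wnt7b, Wnt5b, Dkk3 and Lrp5 lie lower in HE, and Wnt2 and Wnt4 higher.

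Wnt8b, a ligand of the dorsal forebrain and the early hypothalamus, was fitted at -0.99 on the log2 scale (standard error 0.36, adjusted p = 0.214 in limma), but its values of 0.521 to 1.22 RPKM in NC and 0.248 to 0.529 RPKM in HE overlapped narrowly. The ligands Wnt9a, Wnt11, Wnt2b and Wnt9b had overlapping groups as well, with log2 fold changes between -0.75 and 0.30.

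Wnt3, Wnt6 and Wnt10a varied widely within NC. In NC1 to NC3 the levels of Wnt3 were 1.18, 6.22 and 1.97 RPKM, against 2.22, 6.41 and 6.29 RPKM in HE1 to HE3. Wnt6 was at 0.267, 1.26 and 0.169 RPKM in NC and 0.688, 1.10 and 0.965 RPKM in HE. Wnt10a was at 0.151, 1.08 and 0.235 RPKM in NC and 0.543, 0.871 and 0.454 RPKM in HE. NC2 was the high sample each time, and the receptor gene Fzd10 was high there too, at 20.5 RPKM against 5.10 in NC1 and 4.60 in NC3. These 4 genes were the tested members in which NC2 exceeded the next NC sample at least 2-fold, by 3.15 to 4.73 times, and they were picked after their values had been seen. Their intervals were wide, from -0.67 to 2.35 for Wnt3 on the log2 scale. Wnt6 and Wnt10a are neighbours on chromosome 1 with 6696 bases between their annotated spans. Wnt3 and Wnt9b on chromosome 11 have spans that overlap by 1098 bases, so their reads could be shared, and Wnt9b had at most 17 reads.

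**Figure D5:**
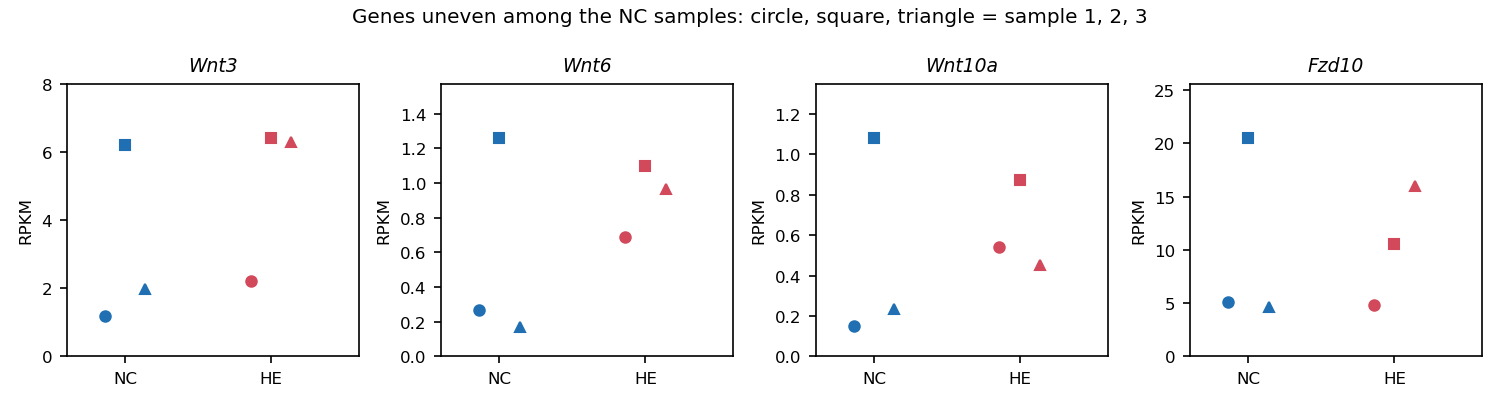
RPKM of Wnt3, Wnt6, Wnt10a and Fzd10 in each sample, on linear axes from 0. Circles, squares and triangles are samples 1, 2 and 3; the NC2 square lies well above both other NC samples in each panel, at 6.22 RPKM for Wnt3 and 20.5 RPKM for Fzd10.

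The 5 ligand genes not tested had few reads. Over all 6 samples there were 32 reads of Wnt10b, 27 of Wnt16, 14 of Wnt1, 6 of Wnt8a and 3 of Wnt3a. Of the 14 Wnt1 reads, 8 were in HE2 and 5 in NC3. Wnt1 and Wnt3a, which pattern the midbrain and the dorsal neural tube, were thus at or near the limit of this depth, which does not show that they were absent from these cells.

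All 10 Frizzled genes were tested. Fzd9, Fzd1 and Fzd3 led, each with 16.0% to 24.6% of the summed Frizzled RPKM of a sample, and no receptor dominated in the way that Wnt7b did. Fzd9 was at 19.9, 33.5 and 16.8 RPKM in NC and 18.3, 26.8 and 25.8 RPKM in HE, and Fzd1 at 24.5, 25.6 and 18.9 RPKM in NC and 18.6, 20.7 and 27.5 RPKM in HE. Both genes had overlapping groups, with log2 fold changes of 0.06 and -0.05 whose signs turned when single samples were left out. The order of the 3 leading receptors is not resolved, since their ranges over samples overlapped.

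Fzd4, the receptor for Norrin in the growth of vessels, was the only Frizzled gene whose groups did not overlap. It was at 1.07, 1.02 and 1.06 RPKM in NC and 1.21, 1.30 and 1.46 RPKM in HE, a small shift of 0.30 on the log2 scale (standard error 0.17, adjusted p = 0.319 in limma). Endothelial Cdh5, a junction protein of vessels, was at 0.341 to 0.755 RPKM in NC and 1.66 to 2.75 RPKM in HE. The other endothelial markers tested overlapped, with Kdr at 0.277 to 0.388 RPKM in NC and 0.351 to 0.835 RPKM in HE, and Flt1 at 1.35 to 2.53 and 1.34 to 1.81 RPKM. The markers Pecam1, Tek, Tie1, Emcn and Cldn5 were below the filter on low reads. The part of endothelial cells in the level of Fzd4 was not tested.

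Fzd6, which with Fzd3 orients cells and hairs in epithelia, had the lowest fold change of the receptors, -0.78 on the log2 scale (standard error 0.30, adjusted p = 0.223 in limma). Its values were 2.78 to 4.21 RPKM in NC and 1.37 to 2.90 RPKM in HE, so that HE1 lay within the NC range. Fzd2, Fzd3, Fzd5, Fzd7 and Fzd8 had log2 fold changes between -0.56 and -0.17, and their groups overlapped. In all, 7 of the 10 Frizzled genes had a fitted value below 0, with a median of -0.21. Over all genes tested, 7843 of 13952 were fitted below 0, with a median of -0.06. Without HE3 the Frizzled median was -0.17. Scaling by the median of ratios moved the Frizzled median to -0.15 and Fzd1 to 0.01.

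Of the co-receptors, Lrp5 lay lower in HE and Lrp6 overlapped, and the difference between them was not tested. Lrp5 (ENSMUSG00000024913) was at 13.4, 8.45 and 10.6 RPKM in NC and 5.91, 7.63 and 3.20 RPKM in HE, with HE2 close to NC2 and HE3 lowest. The fitted log2 fold change was -1.0 (standard error 0.32, adjusted p = 0.197 in limma), and -0.66 without HE3. Lrp6, the co-receptor with the stronger role in most embryonic tissues, was at 10.9, 9.55 and 9.81 RPKM in NC and 9.47, 10.1 and 7.91 RPKM in HE. Its groups overlapped, and the interval of its log2 fold change ran from -0.46 to 0.17, with an estimate of -0.14, or -0.04 without HE3 and -0.22 without HE2. In NC the mean of Lrp5 was 10.8 ± 2.48 RPKM and that of Lrp6 10.1 ± 0.723 RPKM, and in HE they were 5.58 ± 2.24 and 9.16 ± 1.13 RPKM (SD, n = 3 each).

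Among the secreted antagonists Dkk3 stood far above the rest, with 83.7% to 96.4% of their summed RPKM. Dkk3 is a divergent member of the Dickkopf family, and unlike Dkk1 it is not known as a blocker of Lrp6. It was at 130, 105 and 112 RPKM in NC and 71.0, 48.4 and 29.3 RPKM in HE. The groups were well apart, and HE3 was the lowest. On the log2 scale the fold change was -1.31 (standard error 0.30, adjusted p = 0.195 in limma), the farthest below 0 of the 47 genes. Without HE3 it was -0.97. The astrocyte marker Gfap was also lowest in HE3, at 624, 754 and 624 RPKM in NC and 650, 387 and 195 RPKM in HE. Of the other astrocyte markers, Aldh1l1 lay lower in every HE sample, S100b lay higher in every HE sample at 10.6 to 15.5 RPKM against 5.42 to 9.30 in NC, and Gja1, Slc1a2 and Aqp4 overlapped. Gfap and Aldh1l1 make up most of the summed list, which was at 1280 to 1560 RPKM in NC and 813 to 1280 RPKM in HE. The part of astrocytes in the level of Dkk3 was not tested.

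The other antagonists were scarce. Without Dkk3 the summed list was at 3.88 to 8.05 RPKM in NC and 5.38 to 7.27 RPKM in HE, so that the groups overlapped. Notum, an enzyme that removes the lipid from Wnt proteins, was at 3.61, 1.74 and 2.89 RPKM in NC and 2.76, 1.37 and 0.930 RPKM in HE, with overlapping groups and a log2 fold change of -0.74 (standard error 0.42). It was -0.41 without HE3 and -1.15 without HE1. Sfrp1 and Sfrp2, soluble proteins that bind Wnt, were at 0.898 to 2.62 RPKM in all samples, with log2 fold changes of 0.18 and 0.27. Dkk2 was tested on 3 to 17 reads per sample and had overlapping groups. Dkk1 had 9 reads in all and Sfrp5 29. Wif1, which binds Wnt outside the cell, had 3, 1 and 2 reads in NC and 6, 10 and 10 reads in HE. It was below the filter, and with no filter its adjusted p-value was 0.252 in limma.

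In the R-spondin arm, R-spondins bind Lgr receptors and so keep the ligases Znrf3 and Rnf43 from removing Frizzled receptors. Of its 8 genes 6 were tested, and in none were the groups apart, where 32.7% of all genes tested were. Znrf3 was at 2.86, 3.43 and 2.66 RPKM in NC and 2.70, 3.43 and 4.73 RPKM in HE, a log2 fold change of 0.24 (standard error 0.23) that was 0.04 without HE3 and 0.43 without HE1. Lgr4 was at 4.59, 2.65 and 3.27 RPKM in NC and 2.94, 2.44 and 1.66 RPKM in HE, fitted at -0.56 on the log2 scale (standard error 0.28, adjusted p = 0.281 in limma), and at -0.34 without HE3 and -0.35 without NC1. Rspo3 was the R-spondin of these cells, at 1.79 to 3.80 RPKM, with HE1 and NC2 high, and Rspo1 followed at 0.193 to 0.325 RPKM. Rnf43 was at 0.123 to 0.616 RPKM. The stem cell marker Lgr5 reached 0.235 RPKM at most. Rspo2 and Rspo4, with 30 and 23 reads in all, were not tested.

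The core of the pathway inside the cell had narrow intervals around 0. Ctnnb1, the gene of β-catenin, was at 222, 206 and 217 RPKM in NC and 233, 229 and 269 RPKM in HE, and every HE value lay above the NC values. The fitted log2 fold change was only 0.18, with an interval from -0.11 to 0.46 (adjusted p = 0.397 in limma), and it was 0.10 without HE3. Apc, a scaffold that holds β-catenin for destruction, was at 12.9, 13.1 and 12.5 RPKM in NC and 14, 13.6 and 14.5 RPKM in HE, again a narrow separation with a log2 fold change of 0.13 (standard error 0.10). Axin1, the partner scaffold, was at 17.9, 16.0 and 14.1 RPKM in NC and 12.7, 16.3 and 13.1 RPKM in HE, with overlapping groups. Its log2 fold change of -0.19 ran from -0.30 without HE2 to -0.10 without NC1. β-catenin is regulated mainly through its protein, which was not measured by these data.

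The TCF/LEF factors, which carry β-catenin to DNA, were all low. Tcf7l2 was at 1.30, 1.99 and 1.59 RPKM in NC and 1.51, 2.12 and 1.10 RPKM in HE, and Tcf7 at 1.34, 0.756 and 1.43 RPKM in NC and 1.51, 1.14 and 1.28 RPKM in HE, both with overlapping groups. Tcf7l1, mostly a repressor, was at 1.06, 1.15 and 1.01 RPKM in NC and 0.797, 0.855 and 0.301 RPKM in HE. All HE samples lay below NC, with HE3 far below the others. Its log2 fold change was -0.74 (standard error 0.35, adjusted p = 0.266 in limma) and -0.34 without HE3. Lef1, itself a target in many tissues, had 9 to 19 reads per sample.

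Of the 10 genes listed as readouts of β-catenin activity (Axin2, Nkd1, Nkd2, Notum, Znrf3, Rnf43, Lgr5, Lef1, Tcf7 and Dkk1) 9 were tested, with 6 fitted values above 0 and 3 below and a median log2 fold change of 0.15. That median was 0.04 without HE3. Over all genes tested the median was -0.06, with 6109 of 13952 fitted above 0. In 0 of the 9 readouts were the groups apart, where 32.7% of all genes tested were. Also 0 of the 9 had an unadjusted p-value under 0.05 in limma, where 8.68% of all genes had one with a higher and 11.8% with a lower level. With 9 genes, this is a description only. Axin2, the most widely used of these readouts, was at 11.9, 18.5 and 12.1 RPKM in NC and 9.60, 13.2 and 8.12 RPKM in HE. HE2 lay above NC1 and NC3. On the log2 scale the fold change was -0.46 (standard error 0.24, adjusted p = 0.295 in limma), and its interval from -1.01 to 0.10 holds 0 and reaches as low as the estimate for Lrp5. It was -0.25 without NC2 and -0.30 without HE3. Nkd1, an inhibitor that binds Dishevelled, was at 3.99, 6.29 and 3.75 RPKM in NC and 3.68, 7.24 and 4.81 RPKM in HE, with the second sample of each group highest. Its interval ran from -0.55 to 0.84. Nkd2 was at 0.619 to 1.08 RPKM in NC and 0.776 to 1.69 RPKM in HE, a log2 fold change of 0.48 (standard error 0.32). Shifts within these intervals were not detectable with 3 samples a group.

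Other genes of the pathway were read from a list of 49 names that excludes the genes above and holds ligand processing, Dishevelled, kinases, co-activators, co-repressors and alternative receptors. Of 44 tested, 0 were called. In 16 of them (36.4%) every HE value lay below every NC value, and in 5 (11.4%) above, beside the 17.9% and 14.8% of all genes given earlier. The median log2 fold change was -0.16 and -0.11 without HE3. Those with groups apart and a fitted change of 1 or more on the log2 scale were Tle3, Bcl9l and Gpc3. Tle3, a Groucho co-repressor of TCF/LEF factors, was at 18.4, 16.0 and 15.2 RPKM in NC and 7.53, 8.09 and 4.58 RPKM in HE. Its log2 fold change was -1.32 (standard error 0.22, adjusted p = 0.195 in limma) and -1.07 without HE3.

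Bcl9l, a co-activator that binds β-catenin, was at 5.55, 5.02 and 5.06 RPKM in NC and 2.71, 4.16 and 1.14 RPKM in HE, with a wide spread in HE. The fitted log2 fold change was -1.11 (standard error 0.41, adjusted p = 0.218 in limma) and -0.62 without HE3. Gpc3, a glypican of the cell surface, was at 0.753, 0.408 and 1.00 RPKM in NC and 2.76, 2.83 and 1.78 RPKM in HE, with all HE samples above NC. On the log2 scale it was fitted at 1.68 (standard error 0.33, adjusted p = 0.195 in limma), and at 1.01 with log2(RPKM + 1). The part of mesenchymal cells, whose markers are given beside Wnt4, was not tested. In a list of 20 targets known from other tissues 19 genes were tested and 0 called. The groups were apart upward in 1 and downward in 3, both under the 14.8% and 17.9% of all genes. In limma 4 of the 19 were lower at an unadjusted p-value under 0.05 (Cd44, Ephb2, Sp8 and Cyp26a1), beside 11.8% of all genes. Birc5 was the 1 higher gene, beside 8.68% of all genes. Sp8 was fitted at -2.31 on the log2 scale, with overlapping groups. The median log2 fold change of the list was -0.11, and 0.01 without HE3. The gene of that list with groups apart and a change of 1 or more on the log2 scale was Cyp26a1, an enzyme that degrades retinoic acid. It was at 3.22, 3.95 and 0.685 RPKM in NC and 0.221, 0.148 and 0 RPKM in HE, from 23 to 134 reads in NC and 0 to 7 in HE. NC3 lay far below the other NC samples. The fitted log2 value was -3.46 (standard error 0.70, adjusted p = 0.195 in limma), which depends on the constant added, as it was -1.55 with log2(RPKM + 1).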

How the data were processed

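Per the labels, the starting material was total RNA, and the data were processed with CASAVA 1.7, TopHat2 and mm10. The paper states that the RNA was enriched with oligo beads before strand-specific libraries were made. After low-quality reads and adaptors had been filtered, the authors aligned with TopHat2 and deposited, for each gene, a read count and its RPKM. The counting tool, annotation and use of strand in counting are not given in the sources used here. The deposited RPKM equalled reads per gene length and library total to within 4.99e-07. The counts are written with comma separators and were not taken as the main measure, so neither edgeR nor DESeq2 was run. The main test was limma 3.58.1 (R 4.3.3, mean-variance trend, group as the only term, two-sided) on log2(RPKM + 0.1), and voom on the counts was an alternative.

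The filter kept genes that, in at least 3 samples, were above what 10 reads amount to at the median library size, with 15 reads or more over the 6 samples. Symbols were found for 21781 identifiers. Coordinates and promoters are from RefSeq GRCm38.p6, the assembly that mm10 names. The fit was also run on simulated counts with known fold changes. These held no outlying sample such as HE3, so the run does not show how the fit performs on these data. The members and lists were chosen with earlier results of these data known, and lists are described by counts and medians only. Values for every sample are given for tested members with groups apart, with a log2 fold change of at least 1 either way, or among the 2 most abundant of their role; from the lists of other pathway genes and targets, genes with groups apart and such a fold change are named. Marker genes and uneven members were named after their values were seen. Alternatives were log2(RPKM + 1), median-of-ratios scaling, no filter, a minimum of 10 reads per sample, the replicate number as a block, voom and each sample left out.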

Additional observations from a re-analysis of the deposited data

How the results depend on the processing

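Of the Wnt pathway genes, 0 were called in each of the 12 other settings tried. The count at an unadjusted p-value under 0.05, 8 as reported, was 16 with the replicate block, and 7 to 13 with 1 sample left out, the highest being without NC2. Same-numbered samples deviated together with correlations of 0.156, 0.0869 and 0.0603, and each sample correlated best with its own number, which is a hint from the data and not from the design. Without 1 sample, the groups were apart in 12 to 21 genes in place of 10. The value was 21 without NC2, 18 without HE1 and 16 without HE2, with fewer samples to keep apart. The shares over all genes were not counted for the replicate block or with a sample left out. Without those shares, these counts cannot show whether or not the pathway stands apart from other genes. The median log2 fold change lay between -0.15 and -0.02 in every setting. For the 22 genes given sample by sample, 253 of 264 values kept their direction. Fzd1 was at 0.01 with median-of-ratios scaling, which shifts the median of all genes by 0.06. With 1 sample left out the log2 fold change ran from -0.15 to 0.35 for Fzd9, from -0.22 to 0.06 for Fzd1, from -0.30 to 0.15 for Tcf7l2, from -0.08 to 0.34 for Tcf7 and from -0.11 to 0.37 for Nkd1. The cause was not tested. Depth limits the genes under 1 RPKM, where a few reads set the value.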
